A study of Drosophila melanogaster with 2 samples.

Results

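Of the 3607 peaks that the authors kept for Hr96 in adult female flies, 258 (7.15%) lay between genes and away from any transcription start site (TSS). They were chosen by position alone. The summit had to be over 500 bp from every annotated TSS and outside every annotated gene of any biotype, with transposable elements left out of the annotation. The peaks come from the list kept by the irreproducible discovery rate (IDR), a measure of how repeatably peaks rank in replicates. Below they are called intergenic peaks. The other peaks of the list were 2325 promoter peaks (summit at most 500 bp from a TSS), 922 intronic peaks and 102 peaks in exons away from any TSS. The 3607 strongest peaks called from both replicates pooled gave identical test values, and intergenic peaks ranked alike in both lists. Those are in effect the same peaks, so this was no separate check. Being in the list does not by itself show that a given peak was repeated.

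The data come from chromatin immunoprecipitation followed by sequencing in whole adult female Drosophila melanogaster of unknown age, from 2 biological replicates numbered 1 and 3. The flies carried a transgene for Hr96 with a green fluorescent protein at its C-terminal end, and the labels describe precipitation with an antibody to that tag, although they also name Hr96 as the antibody. All samples carried the fusion, so signal that does not depend on Hr96 cannot be told apart from Hr96 binding, and in whole animals a peak cannot be placed in a tissue. The labels do not say which promoter drives the fusion. Each replicate has its own list of 30000 peaks and background regions, and no read totals come with these lists, which leaves the depth behind each peak unknown. Signal is the authors' strength of a peak against a control, on a scale set separately for each list.

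Hr96 is a nuclear receptor, a class of transcription factors that bind short DNA elements, and it is known for its part in handling dietary sterols and fats and in defence against toxins. Sequence between genes holds enhancers, which act on promoters at a distance, and insulators, which separate the regulatory domains of neighbouring genes. In flies several DNA-binding proteins, CTCF among them, mark insulators.

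The sequences under 4 of the strongest intergenic peaks (ranks 34, 70, 113 and 155) show the kind of site at issue, and the fifth window is a second peak from the gap that holds the second of them. Each window spans 100 bases on either side of the summit, from the RefSeq copy of the dm6 assembly, and capitals mark a match to GAGAGAG (the element of the GAGA factor) or to TATCGATA (DRE, the promoter element of DREF), read on both strands. Only the first and the last window held a match to any of the 10 factor motifs searched.
COX7AL2 to CG31668, chr2L:2202319-2202519, plus strand: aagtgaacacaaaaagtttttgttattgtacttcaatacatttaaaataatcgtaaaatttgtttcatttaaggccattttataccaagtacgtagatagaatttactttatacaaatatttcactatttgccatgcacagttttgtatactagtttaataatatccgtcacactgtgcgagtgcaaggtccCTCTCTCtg
Alp13 to lncRNA:CR45054, chr3R:10082602-10082802, plus strand: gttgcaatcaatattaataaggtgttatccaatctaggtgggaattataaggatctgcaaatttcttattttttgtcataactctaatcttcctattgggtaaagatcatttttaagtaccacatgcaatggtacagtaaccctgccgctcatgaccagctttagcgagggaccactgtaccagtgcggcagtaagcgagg
C15 to sp3, chr3R:21520279-21520479, plus strand: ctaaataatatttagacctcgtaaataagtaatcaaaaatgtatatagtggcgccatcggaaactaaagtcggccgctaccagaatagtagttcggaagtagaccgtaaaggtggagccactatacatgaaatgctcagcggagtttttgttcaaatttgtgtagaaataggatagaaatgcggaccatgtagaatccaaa
Sol1 to Cyp9f2, chr3R:12403020-12403220, plus strand: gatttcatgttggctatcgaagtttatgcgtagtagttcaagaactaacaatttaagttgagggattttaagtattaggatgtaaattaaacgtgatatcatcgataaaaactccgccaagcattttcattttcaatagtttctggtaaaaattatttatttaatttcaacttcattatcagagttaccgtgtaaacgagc
Alp13 to lncRNA:CR45054, chr3R:10079698-10079898, plus strand: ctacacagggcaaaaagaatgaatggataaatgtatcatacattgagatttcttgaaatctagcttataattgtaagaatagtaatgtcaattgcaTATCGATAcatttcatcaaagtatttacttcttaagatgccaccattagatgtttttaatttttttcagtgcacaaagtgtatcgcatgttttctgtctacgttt

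The strongest intergenic peak lay between COX7AL2, a gene named for its likeness to a cytochrome c oxidase subunit, and CG31668 (chromosome 2L, 2202217 to 2202623). Its signal in the IDR list was 828.9, rank 34 of 3607, with 455.8 in replicate 1 and 370.0 in replicate 3. It ranked 52 in replicate 1 and 11 in replicate 3, so both placed it near the top. The summit was 3747 bp from the nearest TSS, that of CG31668.

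The next peaks lay in gaps of very different size. The second, between Su(z)2, a Polycomb-related chromatin gene, and CG13323 (2R, 13035164 to 13035476), had a signal of 647.7, with 421.4 and 220.6 in replicates 1 and 3. This gap is 36783 bp long and the summit was 11982 bp from a TSS, whereas the fifth strongest peak sat in a gap of 437 bp. That peak separates the 3' ends of Sol1 and Cyp9f2, a cytochrome P450 gene (3R, 12402997 to 12403268), with a signal of 435.2 and 272.7 and 160.0 in replicates 1 and 3. The third lay between Alp13, an alkaline phosphatase gene, and lncRNA:CR45054 (3R, 10082522 to 10082831, signal 619.0), and the fourth between the homeobox gene C15 and sp3 (3R, 21520238 to 21520489, signal 495.9). Replicate 1 gave these 471.3 and 407.5, and replicate 3 gave them 143.1 and 89.8, so the replicates differed more here than at the strongest peak.

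The other 10 of the 15 strongest had signals of 307.3 to 412.4. A peak of signal 408.6 lay 1262 bp from the TSS of Sesn, which encodes the stress-response protein Sestrin (2R, 23712570 to 23712758). Another, 995 bp from the TSS of CG9498, lay 295 bp from ppk7, a gene of the pickpocket family of sodium channels (2L, 6351884 to 6352131, signal 329.8). Atet, a transporter gene for the steroid ecdysone, had a peak 752 bp upstream (2L, 4333096 to 4333280, signal 309.4, and 204.2 and 113.9 in replicates 1 and 3). Myc, the growth-promoting transcription factor gene, had a peak 1679 bp upstream (X, 3371346 to 3371525, signal 307.3, and 207.8 and 99.2 in replicates 1 and 3). Between jp, the junctophilin gene, and lncRNA:CR44149 lay a peak of signal 335.7 (2L, 9567390 to 9567624), with 265.3 and 78.8 in replicates 1 and 3. The remaining ones flank lncRNA:CR44761 and Ppa, an F-box protein gene (signal 412.4), CG43245 and lncRNA:CR44544 (401.9), Alp13 and lncRNA:CR45054 again (350.1), lncRNA:CR45641 and lncRNA:CR45643 (336.2), and asRNA:CR44087 and glec, the gliolectin gene (332.8). All 15 were higher in replicate 1 and had a match in both replicates.

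Intergenic peaks were weaker than promoter peaks, whereas the difference from intronic peaks did not pass the test. The median signal was 87.7 for intergenic peaks (quartiles 67.7 and 141.6, range 59.9 to 828.9), against 110.2 for promoter peaks and 91.5 for intronic peaks. Of the intergenic peaks 109 of 258 (42.2%, exact 95% interval 36.1 to 48.5%) lay above the list's median of 102.6, against 1271 of 2325 promoter peaks (54.7%). That difference of -12.4 percentage points passed Fisher's exact test (two-sided, adjusted p = 0.00068 over 4 comparisons). Against intronic peaks, of which 391 of 922 (42.4%) lay above the median, the difference was -0.16 points (adjusted exact p = 1). These tests run over peaks, 84 of the intergenic ones sharing a gap with another, and measure no spread between animals. With replicate 3 alone, that is without replicate 1, the difference from promoter peaks was -6.46 points and did not pass (adjusted exact p = 0.19).

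**Figure D1:**
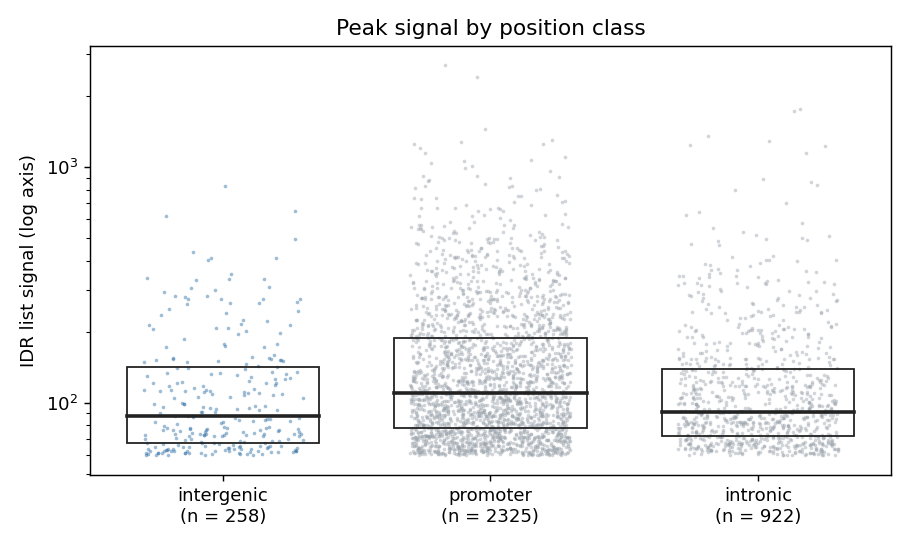
Signal in the IDR list (log axis) of each intergenic, promoter and intronic peak, 1 point per peak, with a box from the lower to the upper quartile and a thick line at the median. The median is 87.7 for intergenic peaks, against 110.2 for promoter peaks and 91.5 for intronic peaks. On the log axis the 3 ranges overlap over most of their extent, with maxima of 828.9, 2692.4 and 1758.0 in that order.

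The share of peaks between genes was higher beyond the ranks of the IDR list than within them, in the pooled list called from both replicates together. Intergenic summits made up 3 of the 100 strongest pooled peaks (3.00%, exact 95% interval 0.623 to 8.52%). Within the IDR list the share did not move steadily, at 6.5% up to rank 500, 4.2% up to rank 1000, 6.90% up to rank 2000 and 8.65% up to rank 3607, each counted from the end of the bin before. Beyond it the share was 15.7% up to rank 7500, 26.8% up to rank 15000 and 30.1% among the 15000 weakest (29.3 to 30.8%). By length, 27.2% of the 6 main chromosome arms met the rule. The weakest entries, which include background regions, were just above that share. They were counted on any sequence and not only on these arms, so the shares are not strictly alike. The IDR list held 7.08 intergenic peaks per Mb of sequence meeting the rule, against 34.4 peaks per Mb in the remaining sequence.

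Replicate support depended on how deep into the replicate lists a match was sought and on which replicate supplied the peaks. A match, here a summit within 100 bp, was found in the full lists of both replicates for 214 of 258 intergenic peaks (82.9%, exact 95% interval 77.8 to 87.3%), against 80.1% of all IDR peaks. Promoter peaks reached 79.5% and intronic peaks 80.5%, and neither difference passed (3.42 and 2.47 points, adjusted Fisher's exact p = 0.44 and 0.56). Those lists reach into background regions. Among the strongest 3607 of each replicate, 104 intergenic peaks (40.3%) were matched in both, against 50.7% of all IDR peaks and 53.9% of promoter peaks. That difference from promoter peaks, -13.6 points, passed in the opposite direction (adjusted exact p = 0.00017), while that from intronic peaks, -6.87 points, did not (adjusted exact p = 0.075). When the strongest 3607 entries of replicate 1 took the place of the IDR list and were sought in the full list of replicate 3, the intergenic share was lower by both comparisons (-5.91 points against promoter and -7.17 against intronic entries, adjusted exact p = 0.048 and 0.037). With the replicates exchanged the differences were 5.56 and 5.77 points and did not pass (adjusted exact p = 0.19 for both). Since intergenic peaks were also weaker, their rank in each replicate moves with this share, and the part of signal in it was not tested.

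Of the 44 peaks without a match in both lists, 29 were matched in replicate 1 only, 13 in replicate 3 only and 2 in neither. Both unmatched ones lie on the X, between Rilpl and futsch, the microtubule-associated protein gene of neurons (1398728 to 1399143, signal 73.1), and between CG4593 and CG12541 (7015089 to 7015504, signal 68.1). Each overlaps a stronger intergenic peak of the same gap that was matched in both replicates, with signals of 96.5 and 139.6. The missing match thus concerns these summits and not the wider place. The strongest peak of replicate 3 only lay between out and nAChRalpha7, a nicotinic acetylcholine receptor gene (X, 19323698 to 19324113). Its signal was 265.7 in the IDR list and 118.0 in replicate 3, where it ranked 258. The strongest of replicate 1 only lay between tRNA:Ile-TAT-1-2 and CG13898 (3L, 784106 to 784521, signal 176.9, and 178.9 in replicate 1).

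Matched intergenic peaks were mostly higher in replicate 1, as were the other classes. Replicate 1 exceeded replicate 3 at 189 of 214 matched intergenic peaks (88.3%), with a median log2 ratio of 1.05 (SD over peaks 0.95), against 0.90 over all 2888 matched IDR peaks. Signals in the pair of libraries were related over these 214 peaks with Spearman's rho 0.38 and, as log2 values, Pearson's r 0.50, as a description over peaks that share 2 libraries and 1 control. For promoter peaks the values were 0.61 and 0.68. Signals of the replicates are on separate scales, so the size of the difference is not one of binding.

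**Figure D2:**
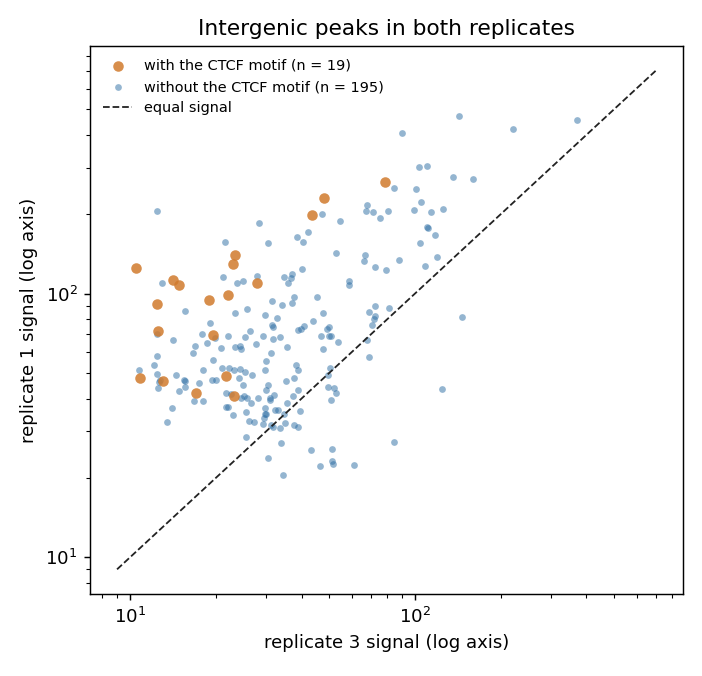
Signal of the 214 intergenic peaks matched in both replicates, replicate 1 on the vertical and replicate 3 on the horizontal log axis, each on its own scale, with a dashed line at equal values. Above the line lie 189 of 214 peaks, among them all 19 with the CTCF motif (large points).

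Motifs of core promoters were rare under intergenic peaks, and that of CTCF was the motif whose share differed most from promoter peaks upwards. The CTCF pattern AGNTGGCGC occurred in 23 of 258 summit windows of 100 bp on either side (8.91%, exact 95% interval 5.73 to 13.1%). That share was 1.94% for promoter peaks (1.42 to 2.58%), 2.17% for intronic peaks (1.33 to 3.33%) and 2.69% over all IDR peaks. Windows 1000 bp to either side of the intergenic summits held it in 5 of 516 cases (0.969%), and all 180412 windows of the same length tiled over the intergenic sequence in 0.466%. The differences were not tested. Matches were close to the summit, with 13 of 23 centred within 25 bp and a median distance of 21 bp.

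The sites themselves are shown for 11 of the 23 such peaks, to let the shared letters be compared. Each is 31 bases on the strand that reads AGNTGGCGC, with the match in capitals.
jp to lncRNA:CR44149, chr2L:9567473-9567503, minus strand: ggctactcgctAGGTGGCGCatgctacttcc
osp to CG15282, chr2L:14706327-14706357, minus strand: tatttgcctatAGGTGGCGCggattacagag
Sid to snu, chr3R:28672410-28672440, minus strand: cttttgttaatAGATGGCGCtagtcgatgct
soti to cv-c, chr3R:14391437-14391467, minus strand: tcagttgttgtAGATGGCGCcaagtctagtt
Jhbp1 to CG14662, chr3R:4970803-4970833, plus strand: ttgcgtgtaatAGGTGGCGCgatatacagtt
Sox21a to Sox21b, chr3L:14111633-14111663, plus strand: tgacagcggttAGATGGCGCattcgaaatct
NLaz to CG14346, chr2L:1362396-1362426, minus strand: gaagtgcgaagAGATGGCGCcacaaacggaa
ImpL2 to asRNA:CR45738, chr3L:4239613-4239643, minus strand: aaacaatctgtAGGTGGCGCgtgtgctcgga
CHES-1-like to CG15478, chrX:7710955-7710985, plus strand: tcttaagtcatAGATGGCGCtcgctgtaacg
CG31191 to Atpalpha, chr3R:20948171-20948201, minus strand: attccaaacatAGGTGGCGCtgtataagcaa
Hacd1 to Rh5, chr2L:12004063-12004093, minus strand: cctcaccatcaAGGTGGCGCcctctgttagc

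The CTCF result rested on replicate 1. In the IDR list these 23 peaks had a median signal of 111.5, against 86.9 for the 235 intergenic peaks without the motif. All 23 were among the strongest 3607 entries of replicate 1, but 3 of 23 (13.0%) were among those of replicate 3. Of the 235 others, 185 (78.7%) and 136 (57.9%) were in those 2 sets. The peak at jp had 265.3 in replicate 1 and 78.8 in replicate 3. The one between Sox21a and Sox21b, a pair of Sox transcription factor genes, had 112.6 and 14.2, and the one beside NLaz, a lipocalin gene that acts in fat metabolism, had 99.2 and 22.1. Over the 19 peaks with a match in both lists, replicate 1 was higher in 19 of 19, by a median log2 ratio of 2.19 (SD 0.67, range 0.81 to 3.58), against 0.92 (SD 0.90) for 195 peaks without the motif.

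The same was seen when each replicate was taken alone. Among the strongest 3607 entries of replicate 1, 30 of 286 intergenic summits held the CTCF motif (10.5%, exact 95% interval 7.19 to 14.6%). In replicate 3 they were 3 of 197 (1.52%, 0.315 to 4.39%). Without replicate 1 the share of intergenic peaks with the motif was thus near that of promoter peaks in replicate 3, 1.16%. Promoter and intronic peaks with the motif also had higher median log2 ratios than those without it (1.46 against 0.89, and 1.98 against 0.89). This comparison between replicates was chosen after the values were seen. The labels give no difference between the replicates beyond their number, and which of them stands nearer to Hr96 binding cannot be told from 2 samples.

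**Figure D3:**
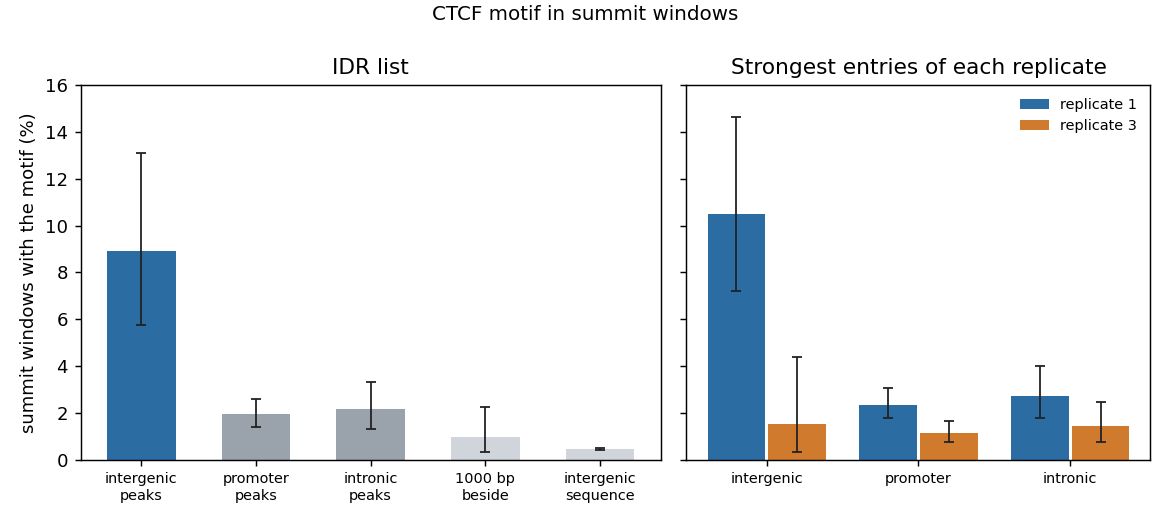
Share (%) of summit windows with the CTCF motif, with exact 95% intervals as error bars. The left panel gives IDR peaks by class, windows 1000 bp beside the intergenic summits and the tiled intergenic sequence, where the intergenic peaks stand at 8.91%, and the right panel gives the strongest 3607 entries of each replicate, where intergenic summits stand at 10.5% in replicate 1 and 1.52% in replicate 3.

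The other motifs gave smaller contrasts, again as description. AGGTCA, the core to which many nuclear receptors bind, was in 8 of 258 intergenic windows (3.10%), against 3.52% of all IDR windows and 5.09% of the tiled intergenic sequence. Whether AGGTCA is the site of Hr96 was not tested. DRE was in 3 of 258 (1.16%, exact 95% interval 0.240 to 3.36%), against 6.45% of promoter windows and 0.868% of intronic windows. Its share of the tiled sequence, 0.441%, lay within that interval. GGTCACACT, the element of the promoter factor M1BP, which can overlap the nuclear receptor core, was in 0 of 258 (exact 95% upper limit 1.42%, and 1.16% as 3 counts of 258), against 3.01% of promoter windows. GAGAGAG was in 6.20% of intergenic windows and 7.18% of promoter windows, against 2.2% of the tiled sequence. The windows 1000 bp beside the same intergenic summits held it in 4.84% (exact 95% interval 3.16 to 7.07%), within the interval of the intergenic windows (3.59 to 9.88%). The element of GATA factors, TGATAAG, was in 6.59% of intergenic windows, 6.51% of intronic windows and 4.39% of promoter windows. TGTTTAC (forkhead factors), CACGTG (the E-box), CAGGTAG (Zelda) and TGCATATTT (Su(Hw)) were in 5.04%, 1.94%, 1.16% and 0.775% of intergenic windows, against 7.35%, 2.55%, 0.887% and 0.887% of all IDR windows. AGTGCA, a shuffle of AGGTCA chosen as a control, was in 20.2% of intergenic and 21.0% of intronic windows. It was in 13.9% of promoter windows, 14.7% of windows 1000 bp beside the intergenic summits and 12% of the tiled sequence. Whether Hr96 or another factor binds AGTGCA was not tested, so it cannot be taken as a neutral control. The other control, TCGTAATA, was in 0 of 258 intergenic windows. Mean GC content was 40.8% in intergenic windows, against 40.2% in promoter windows and 40.8% in the tiled sequence.

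Ranking all words of 8 letters, on either strand, by how far their number of intergenic windows exceeded that expected from the tiled sequence, divided by the square root of the expected number, was done after the data were seen and after words of other lengths had been looked at. The leading words shared letters with the CTCF pattern. GATGGCGC was in 19 windows (7.36%), against 0.385% of the tiled sequence, and AGGTGGCG in 14 (5.43%), against 0.333%. Both overlap the CTCF pattern, so they are not separate observations. AGAGAGCG, which does not, was in 14 windows (5.43%), against 3.27% of promoter windows and 0.678% of the tiled sequence.

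Intergenic peaks crowded toward TSSs even beyond the 500 bp that the rule removes. The median distance to the nearest TSS was 1583 bp (quartiles 863 and 3503, range 501 to 31960 bp), against 5942 bp for the sequence that meets the rule. Summits at 501 to 1000 bp numbered 83 (32.2%) in 7.75% of that sequence, or 29.4 per Mb. Density was 14.9 per Mb between 1000 and 2000 bp, 7.58 between 2000 and 5000 bp, 3.07 between 5000 and 10000 bp and 1.31 beyond 10000 bp. Median signal did not follow it, at 93.0, 77.99, 91.2, 74.1 and 85.5 over the same bins, and the Spearman rho of signal and distance over the 258 peaks was -0.05, a description.

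The peaks farthest from a TSS lay in long gaps. One between NijA, a ninjurin gene, and CG43245 was 31960 bp from any TSS (3L, 10739757 to 10740172, signal 195.6, with 132.5 and 66.2 in replicates 1 and 3). A second in that gap, at 21028 bp, had a signal of 62.8, and 51.3 and 10.7 in replicates 1 and 3. The third, at 18607 bp between Su(z)2 and CG13323, had 77.8 (39.5 and 50.6 in replicates 1 and 3), and so was higher in replicate 3.

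At the 500 bp threshold there was no break in number. Outside genes, 29 summits lay over 500 and up to 600 bp from a TSS, and 35 over 400 and up to 500 bp. The nearest inside were at 501 bp from Acsf2 (signal 265.2), 504 bp from Sqor (114.2) and 506 bp from CG42249 (77.0). Just outside were peaks at 499 bp from lncRNA:CR42839 (72.1), 498 bp from CrebA, a secretory pathway regulator (133.6), and 496 bp from lncRNA:CR45541 (158.1).

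The share of intergenic peaks in divergent gaps was above that of the sequence, and in convergent gaps below it. In divergent gaps, where both genes start, there were 80 peaks (31.0%, exact 95% interval 25.4 to 37.0%) in 20.3% of the sequence. Convergent gaps, where both genes end, held 52 (20.2%, 15.4 to 25.6%) in 25.5%, and tandem gaps 125 (48.4%, 42.2 to 54.7%) in 50.5%. One peak lay beyond the last gene of an arm. The densities were 10.8 per Mb in divergent, 5.60 in convergent and 6.79 in tandem gaps. Median signal ran otherwise, at 84.6 in divergent, 109.3 in convergent and 85.4 in tandem gaps, and median distances to a TSS were 1234, 3517 and 1367 bp. These differences were not tested, and orientation and distance were not separated. Relative to the nearest TSS, 184 summits (71.3%, 65.4 to 76.8%) lay upstream, against 58.5% of the sequence. The median distance was 1274.5 bp for upstream and 3274 bp for downstream summits, and the share of the sequence was not matched for distance.

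**Figure D4:**
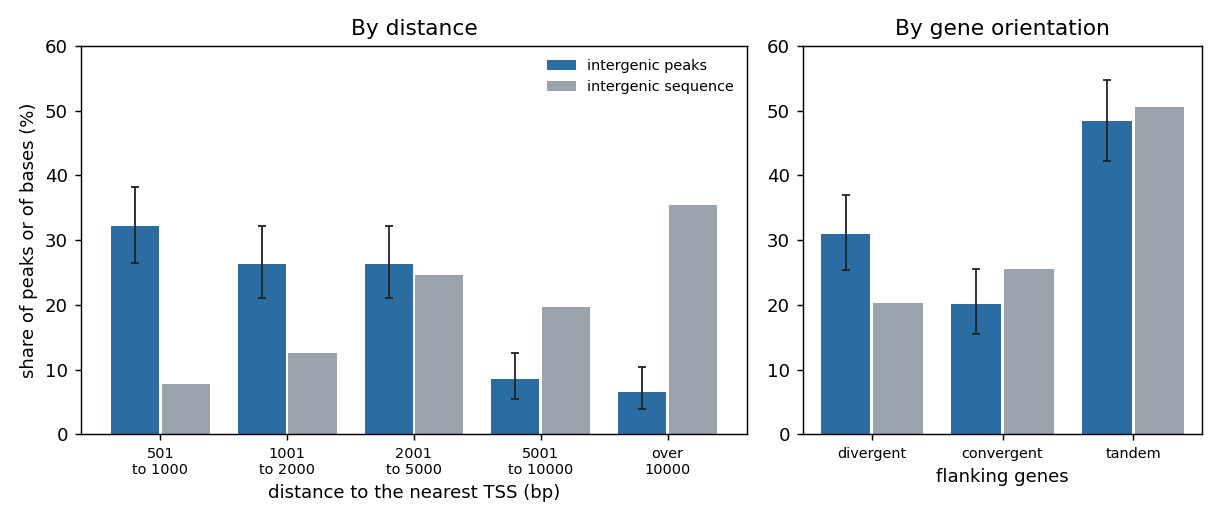
Share (%) of the 258 intergenic peaks, with exact 95% intervals, beside the share of the sequence that meets the rule, by distance to the nearest TSS in bp and by orientation of the flanking genes. At 501 to 1000 bp lie 32.2% of the peaks and 7.75% of the sequence, and in divergent gaps 31.0% of the peaks and 20.3% of the sequence. The arm end peak is not drawn.

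For their share of the sequence, intergenic peaks lay more often in short gaps. Gaps over 20000 bp held 13.2% of the peaks and 47.1% of the sequence meeting the rule, and gaps up to 2000 bp held 20.9% of the peaks and 4.02% of the sequence, or 1.98 and 36.8 peaks per Mb. Median distances to a TSS were 7122 and 824.5 bp in these gaps, and gap length and distance were not separated. The gap around a peak had a median length of 5808 bp over peaks (quartiles 2447 and 11809, range 279 to 75047 bp). Of 6528 gaps with any such sequence, 207 held a peak. The nearest gene end was a median of 891 bp away, a 5' end for 139 peaks and a 3' end for 119. The shortest gap, 279 bp between Hex-A, a hexokinase gene, and lncRNA:CR45542 (X, 9589884 to 9590299), had its summit 1 bp from the noncoding gene, a signal of 151.4, and a match in replicate 3 only. Both flanking genes were protein-coding for 146 peaks, one was for 94 and neither for 18. One peak, at the end of the X (115050 to 115465, signal 73.4), lay in a transposable element.

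By chromosome arm, density was 4.83 per Mb on 2R and 7.27 to 8.16 per Mb on the 5 other arms. Matches in both replicates ranged from 75% on the X (40 peaks) to 93.4% on 3R (61 peaks), apart from chromosome 4 with 2 peaks, both matched.

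Peaks shared gaps. Of the 207 gaps, 33 held several peaks, 84 in all (32.6%). In some gaps these peaks overlap, as between lncRNA:CR45643 and tara with summits 199 bp apart, so they need not be separate sites. The gap between COX7AL2 and CG31668 held 5 within 3600 bp, with signals of 64.7, 98.2, 154.2, 267.7 and 828.9 from left to right, so they increased toward CG31668. Between Hacd1, a fatty acid elongation gene, and Rh5, a rhodopsin gene, 5 peaks had signals of 112.0, 69.6, 126.1, 73.7 and 262.8, and on the other side of Rh5, before lncRNA:CR44588, lay 4 more (134.4, 70.5, 221.2 and 149.2). Both sets include overlapping neighbours, with summits 266 and 206 bp apart in the first and 203 bp apart in the second. The gap between tRNA:Ser-GCT-2-2 and foxo, the transcription factor gene of insulin signalling, held 4 (73.0, 98.8, 153.7 and 119.0), the strongest matched in replicate 1 only. Another IDR summit was within 1000 bp of 77 intergenic peaks (29.8%), against 26.1% of promoter and 26.5% of intronic peaks.

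**Figure D5:**
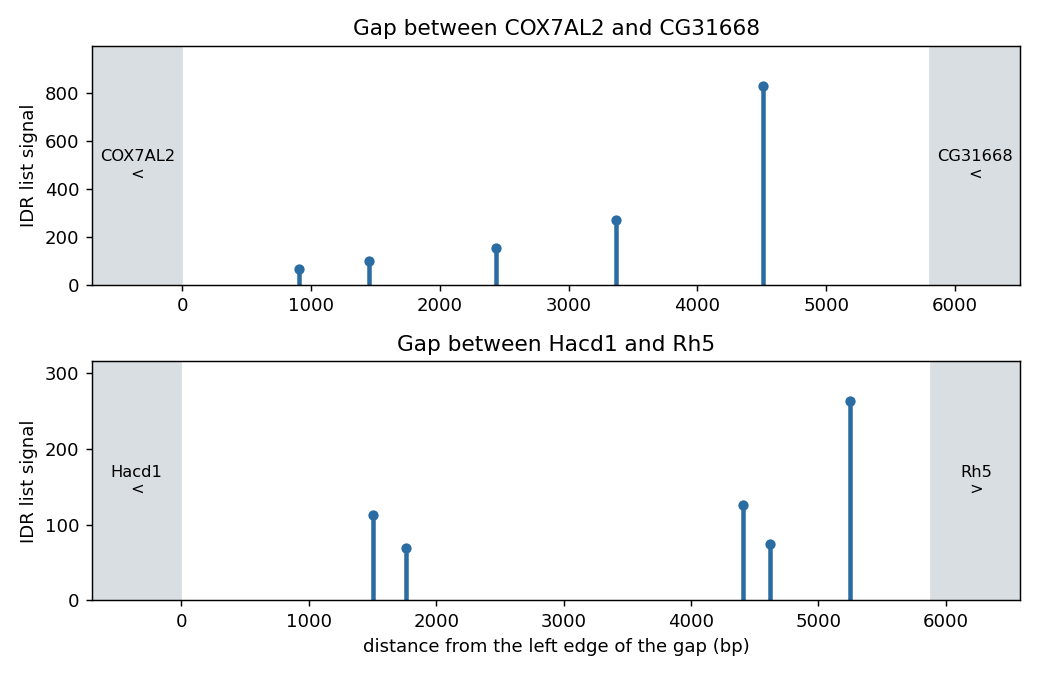
Summits in the 2 gaps with 5 intergenic peaks each, at their distance in bp from the left edge of the gap, with signal in the IDR list as height. Grey areas are the flanking genes and arrowheads their direction of transcription. The strongest peak, at 828.9 and 262.8, is the one nearest to CG31668 and to Rh5. Signals increase from left to right in the first gap but not in the second.

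Genes beside intergenic peaks numbered 394 of the 9317 that flank any gap with sequence meeting the rule (4.23%). Developmental regulators, a list of mostly transcription factors that also holds wg, the gene of a secreted Wnt ligand, were 10 (9.90% of the list's genes beside such gaps). They included C15 (495.9), the gap gene hb (224.9) and Sox21a (122.5), and wg itself (65.1) with its peak 25531 bp away. The C15 peak was 7565 bp from C15 but 549 bp from the TSS of sp3. The Sox21a peak was 3513 bp from Sox21a and 774 bp from Sox21b. The hb peak was 14478 bp from hb but 633 bp from the TSS of CG8112, and was higher in replicate 3 (145.9) than in replicate 1 (81.4). Nuclear receptors were 3 of 18: Hr51 (94.3), Eip75B, an ecdysone-induced gene (62.2), and Hr38 (61.6), all with signals below the list's median. Gap length differs between lists and was not matched.

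Of genes tied to the known roles of Hr96, shares near that of all genes lay beside an intergenic peak. Sterol and triacylglycerol genes were 1 of 30 (3.33%), NLaz at 592 bp (117.3). Detoxification families were 3 of 93 (3.23%), with Cyp9f2 (435.2), Cyp4e3 (81.9) and the glutathione transferase gene GstD1 (74.5). Such counts are too small to set either share apart from the 4.23% of all genes. Ribosomal protein genes were 3 of 67 (4.48%; RpS15Aa 104.6, RpLP0 91.1, RpL17 60.05), immunoglobulin adhesion genes 2 of 50 (4.0%; dpr20 274.8, dpr17 135.2), chemoreceptors 2 of 114 (1.75%; Gr28a 62.2, Gr89a 60.1) and cuticle proteins 1 of 97 (1.03%; Cpr76Ba 152.2). Eggshell and yolk genes were 0 of 11. Among noncoding genes, lncRNAs were 81 of 1300 (6.23%), tRNAs 3 of 84 (3.57%), miRNAs 1 of 24 (4.17%; mir-4981, 276.2) and snoRNAs and snRNAs 0 of 13.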

How the data were processed

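The authors deposited lists of peaks on the dm6 assembly, 1 for each of 2 replicates, 1 pooled and 1 kept by IDR. Per the text lists deposited with them, each replicate's list was called from its own alignments and 1 shared control. No source used here names the caller, the aligner or the cutoff of the IDR step. No sequence from chromosome arm 2R is printed. The deposited signal is the peak caller's strength for a peak, and the deposited −log10 q column was read but not tested. Peaks were ranked by signal within a list.

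Summits were placed against Ensembl 115 (BDGP 6) genes with Python 3.11.15, pandas 2.3.3 and SciPy 1.17.1. The 4 differences in shares were tested by Fisher's exact test (two-sided, Benjamini-Hochberg adjusted, threshold 0.05), and the procedure was tested on simulated data. Intervals are Clopper-Pearson 95% and cover counting error only. Motifs were sought on both strands in windows of 100 bp on either side of the summit, and 2 patterns were shuffles chosen as controls.

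Genes named are those beside the 15 strongest peaks, peaks matched in neither replicate, the 3 nearest on each side of the threshold, the 3 farthest from a TSS, and up to 3 per gene list. Peaks of 1 replicate only, gaps with several peaks, and sites with the CTCF motif were named after their values were seen. The lncRNA and miRNA lists were defined by symbol once the annotation was seen to give no such biotypes. The members and lists were chosen with earlier results of these data known. Alternatives varied the threshold, annotation, match distance, list and window.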

Additional observations from a re-analysis of the deposited data

How the results depend on the processing

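The number of intergenic peaks was 406 at over 250 bp and 107 at over 2000 bp from a TSS, and 175 to 359 under the alternatives that varied the rule or annotation otherwise. The median distance was 2027 bp to TSSs of protein-coding genes. The share above the list's median, against promoter peaks, ranged from -11.7 to -6.46 points with 1 replicate left out, the call being lost without replicate 1. Against intronic peaks it turned positive at over 1000 bp (2.67 points), with the strongest peak of each gap only (2.52, an alternative chosen after seeing the data) and with 1 replicate left out (2.09 to 2.83), never passing. The share matched in both, against promoter peaks, turned to -13.6 points with the strongest entries of each replicate, and ranged from -5.91 to 5.56 with 1 replicate left out, where the strongest entries of the remaining replicate were sought in the list of the other. Against intronic peaks it was -6.87 and ranged from -7.17 to 5.77. Without replicate 3 both negative differences passed (adjusted Fisher's exact p = 0.048 and 0.037). The causes were not tested. The CTCF share was 1.52% without replicate 1, 10.5% without replicate 3 and 7.36% in windows of 50 bp on either side of the summit. In those windows GAGA, GATA and AGTGCA were at 3.49%, 3.10% and 9.30%. In windows of 100 bp on either side, AGTGCA was at 26.4% without replicate 1 and 17.8% without replicate 3. That order is the reverse of the one for CTCF. No paired analysis was possible because the samples form a single group.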

Other observations

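Among the strongest 3607 entries of replicate 1, 286 were intergenic by the same rule (7.93%), of which 77 had no IDR summit within 100 bp and 22 of those were matched in the list of replicate 3. The strongest such peak lay between CG9743 and RpS7 (3R, 30203395 to 30203794, signal 139.6, rank 675). In replicate 3 they numbered 197 (5.46%), with 60 outside the IDR list and 9 of those matched in replicate 1. The strongest lay between CG11374 and net (2L, 82090 to 82509, signal 98.2, rank 385).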
